A study of Mus musculus with 34 samples.

Results

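A group of 8 sections of the mesoderm layer of mouse embryos at embryonic day 7 were compared by their position. They are 8 of 24 laser-captured sections with a gene table, in a series of 34 samples about the long noncoding RNA Evx1as, and they were taken by their labels alone: every section whose title and cell type label both name mesoderm. Of these, 5 came from Evx1as-/- embryos (layers 3, 5, 7, 9 and 11) and 3 from Evx1as+/- embryos (layers 7, 9 and 11), all of the strain C57/B6. Every section therefore carried at least 1 mutant allele and no wild-type mesoderm was measured. A further 3 sections were left out because title and cell type label name different regions. The labels do not say how the allele was made, which end of the embryo has the low layer numbers, or which sections come from the same embryo. Sections of a genotype may share an embryo, so all p-values over sections given here are too small.

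During gastrulation, cells of the epiblast pass through the primitive streak and spread between the germ layers as mesoderm. Cells that leave the streak at its proximal end form extraembryonic mesoderm under the influence of BMP signals, whereas cells from its distal end form axial mesoderm and definitive endoderm where NODAL activity is high. Genes of these populations are therefore markers of position along the mesoderm layer. The comparison asked which genes had a level that followed the layer number over both genotypes at once.

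Levels are FPKM, that is, fragments counted on a gene relative to its length and to all mapped fragments of the library, as the authors deposited them. The trend of a gene is the slope of log2(FPKM + 1) on layer number with genotype as a term, in log2 units per layer, and its change over the fitted range spans 8 layer numbers. The sum of FPKM was 223732 to 252868 in the 5 Evx1as-/- sections and 132929 to 247609 in the 3 Evx1as+/- sections, with the lowest in layer 11. In Evx1as-/- sections 8420 to 9403 genes reached 1 FPKM, and in Evx1as+/- sections 7025 to 8057. Sequencing depth is unknown, because the tables hold no counts. The median-ratio factor of a section is its median level relative to the geometric mean of the 8 sections, over genes detected in all. It was 0.942 to 1.28 in the Evx1as-/- sections, and 0.872, 1.26 and 0.64 in layers 7, 9 and 11 of Evx1as+/- mesoderm. Levels of single genes are given unscaled. Comparisons between single sections, above all with Evx1as+/- layer 11, can change after division by these factors. Evx1as itself (listed as 5730457N03Rik) was at 0 FPKM in all 5 Evx1as-/- mesoderm sections, against 0.557, 0.838 and 0 FPKM in layers 7, 9 and 11 of Evx1as+/- mesoderm, so its level there does not separate the labels in layer 11.

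The label mesoderm was checked against defining markers. Cdh1, the cadherin of epithelia, was at 0.219 to 6.64 FPKM in the 8 mesoderm sections, below the 9 streak sections of layers 3 to 11 (9.87 to 21.8 FPKM) and both anterior epiblast sections (9.93 and 16.4 FPKM). Mesp1, a transcription factor of nascent mesoderm, was at 11.1 to 72.8 FPKM in mesoderm, 6.91 to 71 FPKM in streak and 0 and 1.42 FPKM in anterior epiblast. Mesoderm was thus below both other regions in Cdh1, while Mesp1 did not separate it from streak. Of the other epithelial markers, Epcam was also lowest by median in mesoderm, whereas Krt8, Krt18 and Cldn6 were not. The keratin gene Krt8 had a median of 12.4 FPKM in mesoderm, against 5.04 in streak and 2.33 in anterior epiblast, and Krt18 had 9.65, against 1.32 and 4.28. The claudin gene Cldn6 had a median of 20.2 FPKM in mesoderm, 15.7 in streak and 68.7 in anterior epiblast, and Epcam 7.61, 22.1 and 30.4 FPKM. The keratins were thus higher by median in mesoderm, and of these 5 genes Cdh1 was the one at which every mesoderm section lay below every section of both other regions. The Evx1as-/- section of layer 3 had the lowest sum of 10 mesoderm markers, 52.8 FPKM against 70.5 to 195 FPKM in the other 7 sections. Mesp1, Hand1, Fn1 and Pdgfra had their lowest value there, while Kdr, Tbx6, Lefty2, Snai1, Cdh2 and Vim did not. Pdgfra, a growth factor receptor of mesoderm, was at 0.0668 FPKM there and at 2.04 to 4.87 FPKM in the other 7 sections. The Evx1as-/- section of layer 9 was rich in genes of visceral endoderm, the epithelium outside the mesoderm: its list of 26 genes summed to 1365 FPKM there, against 78.2 to 378 FPKM in the other 7 sections. Its abundant members Apoe (593 FPKM) and Apoa1 (294 FPKM) led, and 1 of the 26 genes was at 0 in all 8 sections. In bulk pieces, fewer cells of a type and less RNA per cell cannot be told apart.

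Only 1 gene, Phlda2, rose with layer at an adjusted p under 0.05, and none fell (limma with Benjamini-Hochberg adjustment over 8695 genes). These are 0.0115% and 0% of the genes tested. At an unadjusted p under 0.05, 245 genes (2.82%) had a positive and 178 genes (2.05%) a negative slope, together 423 genes. With no trend, a share of about 0.05 of the genes is expected at this threshold, and 423 of 8695 is close to it. The median slope of all genes was 0.0098 log2 units per layer. After median-ratio scaling the positive and negative counts were 323 and 246 genes. With a fixed sum of FPKM without Yam1 and mitochondrial genes they were 286 and 272. A stricter description asks that the level moves the same way at every step between layers in both genotypes. This held for 16 genes upward (0.184% of those tested) and 13 genes downward (0.15%). Of the 720 possible orders of layers within genotype, 1 is upward throughout and 1 downward. Both shares are close to what random orders give, so a movement at every step does not by itself set a gene apart.

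Phlda2 is an imprinted gene expressed from the maternal allele, whose protein has a pleckstrin homology domain and restrains growth of the placenta. It lies on chromosome 7 from 143501545 to 143502541 on the minus strand (mm10). The 250 bases before its start and those of Cer1, the gene with the steepest negative slope among those named, are shown because they are the ends of the trend described here. They are from RefSeq (GRCm38.p6), chr7:143502525-143502774 and chr4:82885152-82885401, both on the minus strand and written 5′ to 3′. Capitals mark the motifs found.
Phlda2: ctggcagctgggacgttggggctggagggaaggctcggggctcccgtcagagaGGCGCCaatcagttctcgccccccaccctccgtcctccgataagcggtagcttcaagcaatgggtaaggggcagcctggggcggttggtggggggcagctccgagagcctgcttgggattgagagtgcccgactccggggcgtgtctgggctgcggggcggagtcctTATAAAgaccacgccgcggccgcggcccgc
Cer1: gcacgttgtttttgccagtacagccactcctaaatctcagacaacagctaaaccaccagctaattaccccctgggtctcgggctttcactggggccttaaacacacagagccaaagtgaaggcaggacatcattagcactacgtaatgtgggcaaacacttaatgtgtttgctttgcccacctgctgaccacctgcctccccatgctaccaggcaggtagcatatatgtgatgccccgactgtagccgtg
A set of 5 motifs was searched on both strands: the TATA box TATAAA, the GATA-factor motif AGATAA, the FOXH1 motif AATNCACA, the paired-type homeodomain motif TAATCC and the GC-rich SMAD motif GGCGCC. Upstream of Phlda2, TATAAA begins 30 bases before the RefSeq start and GGCGCC begins 197 bases before it. That RefSeq start lies inside the gene span given above, so the Phlda2 window overlaps the span by a few bases. Over all 32841 promoters of this length, 12.4% held TATAAA, 9.99% AGATAA, 3.19% AATNCACA, 6.25% TAATCC and 9.59% GGCGCC. None of the 5 was found in the window of Cer1. The Phlda2 window was 68.8% G and C with 21 CG dinucleotides, and the Cer1 window 51.6% with 5, against medians of 52.4% and 6 over all promoters.

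In Evx1as-/- mesoderm Phlda2 was at 13.9, 62.7, 105, 449.9 and 1341 FPKM in layers 3, 5, 7, 9 and 11. In Evx1as+/- mesoderm it was at 168, 1171 and 1339.9 FPKM in layers 7, 9 and 11. The level went up at every step in both genotypes. In these unscaled values layers 7 and 9 were lower in Evx1as-/- than in Evx1as+/- mesoderm while layer 11 was nearly equal. The median-ratio factors of layer 11 were 1.25 in Evx1as-/- and 0.64 in Evx1as+/- mesoderm. After division by them, layer 11 was also lower in Evx1as-/- mesoderm. The intervals that the authors deposited with these values did not overlap between any neighbouring layers of Evx1as-/- mesoderm: 9.55 to 18.2 FPKM in layer 3, 53 to 72.3 in layer 5, 94.6 to 115 in layer 7, 430 to 469.9 in layer 9 and 1304 to 1378 in layer 11. Each interval belongs to 1 section and holds no variation between sections or embryos, so it is no test of a difference between layers. The slope was 0.78 ± 0.072 (SE) log2 units per layer, a change of 6.27 ± 0.58 over the 8 layer numbers (adjusted p = 0.00401). An exact permutation of layers within genotype gave p = 0.00278 (two-sided), the smallest that its 720 orders allow. The slope was 0.79 in Evx1as-/- and 0.75 in Evx1as+/- mesoderm, a difference of 0.043 ± 0.205 (unadjusted p = 0.836). The call was lost without the Evx1as-/- section of layer 3 (slope 0.76, adjusted p = 0.067) and without that of layer 11 (slope 0.77, adjusted p = 0.225).

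**Figure D1:**
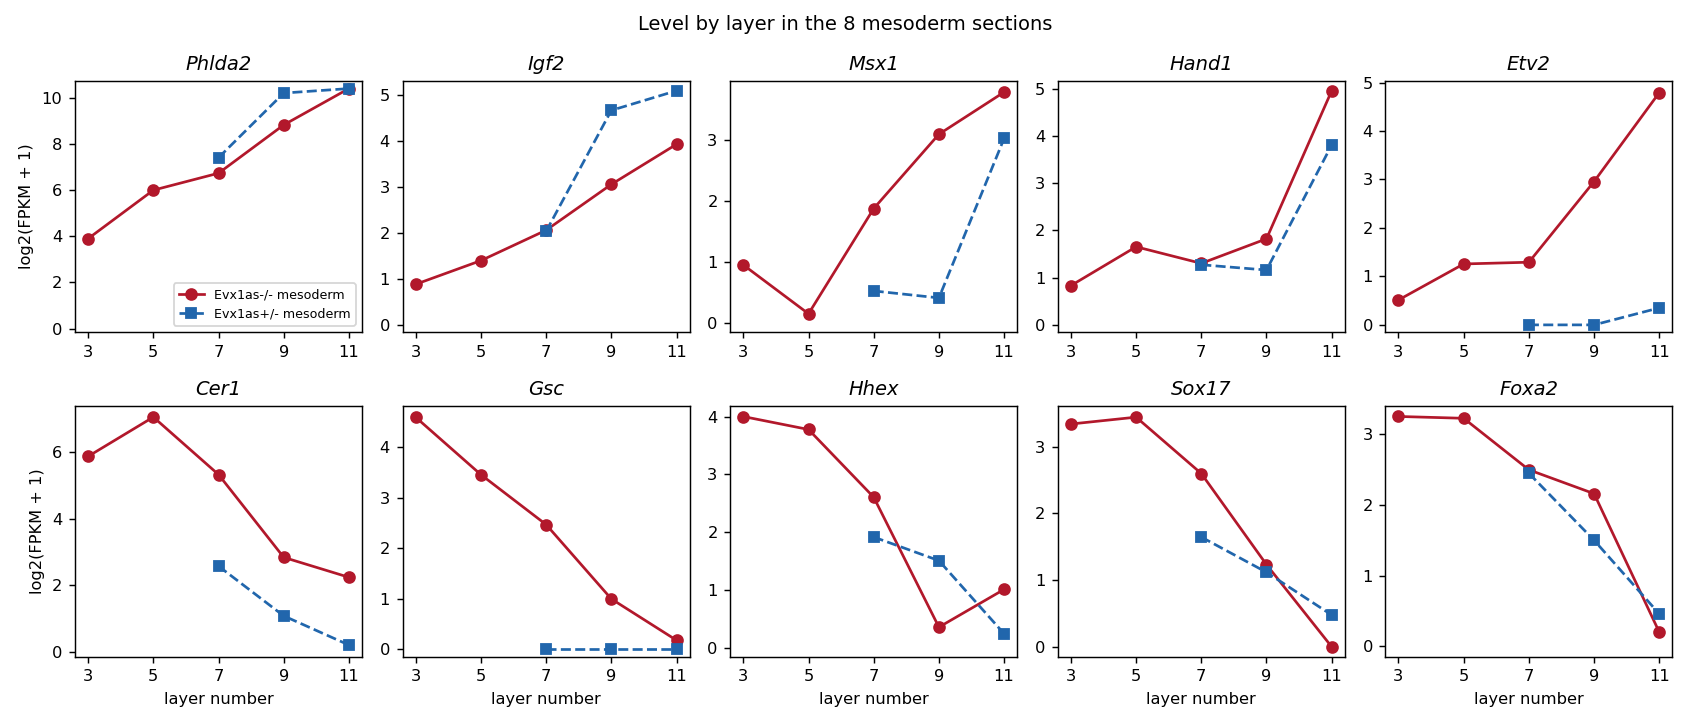
Level of 10 named genes as log2(FPKM + 1) against layer number, 1 point per mesoderm section (red circles Evx1as-/-, blue squares Evx1as+/-), with an own y axis in each panel. Phlda2 climbs at each step in both genotypes, whereas Etv2 does so in Evx1as-/- sections and Gsc is at 0 in all 3 Evx1as+/- sections.

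A list of genes of extraembryonic mesoderm and amnion held Phlda2 and had the highest median slope of the lists shown in the plot of slopes by list. Of its 20 genes, 11 passed the filter on low values, 1 was called, and 7 had a positive slope at an unadjusted p under 0.05, with none negative. The median slope of the 11 was 0.34 log2 units per layer. The 7 were Phlda2, Msx1, Hand1, Igf2, Msx2, H19 and Bmp4. The count stayed at 7 without the Evx1as-/- section of layer 9 and was 6, with 1 negative, without that of layer 3. It was 5 to 7 when any 1 section was left out, and 4 to 7 over all 18 alternatives. Genes can be in several lists, so the counts of different lists are not separate observations. Over all genes tested, 2.82% had a positive and 2.05% a negative slope at that threshold. These shares are the background for this and every later list count.

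Hand1 encodes a transcription factor needed in extraembryonic mesoderm and heart. It was at 0.783, 2.15, 1.47, 2.54 and 30 FPKM in layers 3 to 11 of Evx1as-/- mesoderm, against 1.42, 1.24 and 13 FPKM in layers 7 to 11 of Evx1as+/- mesoderm. In both genotypes the section of layer 11 stood above all lower layers, which were all under 3 FPKM. Its slope was 0.46 ± 0.11 (adjusted p = 0.707). The homeobox gene Msx1, a target of BMP signalling, was at 0.931, 0.11, 2.66, 7.5 and 12.7 FPKM in Evx1as-/- and at 0.438, 0.329 and 7.1 FPKM in Evx1as+/- mesoderm. It was highest in layer 11 in both genotypes, but already above 2 FPKM in layer 7 of Evx1as-/- mesoderm and under 1 FPKM in layer 9 of Evx1as+/- mesoderm. The slope was 0.46 ± 0.095 (adjusted p = 0.304). Msx2, its relative, was at 0, 1.52, 1.11, 3.38 and 12.7 FPKM in Evx1as-/- and at 0, 1.64 and 0.721 FPKM in Evx1as+/- mesoderm, so the high level of layer 11 was seen in 1 genotype only (slope 0.38 ± 0.087, adjusted p = 0.465).

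Bmp4, the ligand known to induce these genes, was at 0.126, 1.23, 0.283, 0.163 and 7.98 FPKM in Evx1as-/- and at 0.266, 0.796 and 3.24 FPKM in Evx1as+/- mesoderm. Like Hand1 it was highest in layer 11 of both genotypes (slope 0.28 ± 0.11, adjusted p = 0.968). Of 26 genes of the BMP pathway, 16 were in the fit and 3 (Msx1, Msx2 and Bmp4) had a positive slope at an unadjusted p under 0.05. Over all genes tested that share was 2.82%. All 3 genes are also in the list of extraembryonic mesoderm and amnion and were counted there. The Id genes, direct targets of SMAD proteins, did not pass even that threshold, with slopes of 0.07 for Id1, 0.17 for Id2 and 0.069 for Id3. The median slope of the 16 was 0.065, and the receptors and SMAD genes in the fit lay between -0.11 (Acvr2b) and 0.16 (Acvr2a). The count was 4 without the Evx1as-/- section of layer 3.

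The imprinted growth genes of the Phlda2 region on chromosome 7 had positive slopes as well. From H19 to Osbpl5 (142575558 to 143741963), a window chosen after its values were seen, the tables list 22 genes. Of these, 9 were in the fit, and 4 (H19, Igf2, Cdkn1c and Phlda2) had a positive and none a negative slope at an unadjusted p under 0.05. The other 5 in the fit (Cd81, Tssc4, Kcnq1ot1, Nap1l4 and Tnfrsf22) had slopes between -0.023 and 0.053. The 4 genes are thus interleaved with genes whose slope was near 0. Of the 4, H19, Igf2 and Phlda2 were already counted in the list of extraembryonic mesoderm and amnion.

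Igf2, a growth factor expressed from the paternal allele, was at 0.855, 1.65, 3.19, 7.36 and 14.3 FPKM in layers 3 to 11 of Evx1as-/- mesoderm. In layers 7 to 11 of Evx1as+/- mesoderm it was at 3.12, 24.5 and 33.3 FPKM. It went up at each step in both genotypes, and from layer 9 on was lower in Evx1as-/- sections (slope 0.45 ± 0.083, adjusted p = 0.171). H19, the noncoding RNA expressed from the maternal allele next to it, was at 5, 9.61, 13.7, 60.9 and 35.5 FPKM in Evx1as-/- and at 16.1, 32 and 21.4 FPKM in Evx1as+/- mesoderm. Both genotypes had their highest unscaled value in layer 9 rather than 11 (slope 0.34 ± 0.089, adjusted p = 0.717). In Evx1as+/- mesoderm this order does not hold after division by the median-ratio factors (1.26 in layer 9 and 0.64 in layer 11). Cdkn1c, an inhibitor of cyclin-dependent kinases, was at 0, 1.24, 2.11, 2.68 and 5.58 FPKM in Evx1as-/- and at 7.85, 17 and 7.96 FPKM in Evx1as+/- mesoderm. Every Evx1as-/- value lay below every Evx1as+/- value. The values were higher at each step in Evx1as-/- sections, and the Evx1as+/- maximum was in layer 9 (slope 0.26 ± 0.078, adjusted p = 0.844). Across the genome, 17 of 25 listed imprinted genes were in the fit, 4 with a positive and 1 (Snrpn) with a negative slope at an unadjusted p under 0.05, and their median slope was 0.051. These were 3 and 0 without the Evx1as-/- section of layer 3, with a median of -0.011. Over all 18 alternatives they were 2 to 4 and 0 to 2. Of all genes tested, 2.82% had a positive and 2.05% a negative slope at that threshold in the main fit.

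Genes of blood and endothelial precursors differed among themselves. Etv2, the ETS factor that specifies these lineages, was at 0.428, 1.39, 1.45, 6.77 and 26.7 FPKM in Evx1as-/- mesoderm, against 0, 0 and 0.275 FPKM in Evx1as+/- mesoderm. It was thus close to 0 in the Evx1as+/- sections, and its slope of 0.44 ± 0.093 (adjusted p = 0.319) came from 1 genotype. The difference between the slopes of the genotypes was 0.42 ± 0.22 (unadjusted p = 0.0811, adjusted p = 0.65). Kdr, a receptor for VEGF that marks the same precursors, was at 0.436, 2.43, 3.88, 4.04 and 12 FPKM in Evx1as-/- and at 0.395, 1.79 and 1.21 FPKM in Evx1as+/- mesoderm. It was highest in layer 11 of Evx1as-/- mesoderm and had its unscaled Evx1as+/- maximum in layer 9 (slope 0.32 ± 0.071, adjusted p = 0.459). That maximum is in layer 11 after division by the median-ratio factors (1.26 in layer 9 and 0.64 in layer 11). Of the 20 genes of this list 4 were in the fit, with 2 positive slopes (Etv2 and Kdr) and 1 negative (Hhex, -0.46 ± 0.082) at an unadjusted p under 0.05. The fourth, the VEGF receptor gene Flt1, had a slope of -0.040. The hematopoietic regulators Tal1, Gata1 and Runx1 were among the 16 below the filter.

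The remaining steep positive slopes belonged to genes of several kinds, none past the threshold. Pmp22, a membrane protein linked to growth arrest, was at 0, 0.359, 0.274, 5.48 and 15.2 FPKM in Evx1as-/- and at 0.237, 2.32 and 6.68 FPKM in Evx1as+/- mesoderm. Both genotypes were low through layer 7 and higher from layer 9 (slope 0.54 ± 0.085, adjusted p = 0.171). Igfbp4, which binds insulin-like growth factors, was at 1.57, 3.49, 7.19, 14.1 and 20.3 FPKM in Evx1as-/- and at 4.37, 15.4 and 11.8 FPKM in Evx1as+/- mesoderm (slope 0.38 ± 0.069, adjusted p = 0.171). Ccnd2, the cell cycle regulator cyclin D2, was at 2.56, 7.21, 13.1, 22.4 and 39.8 FPKM in Evx1as-/- and at 7.4, 12.8 and 12.1 FPKM in Evx1as+/- mesoderm (slope 0.38 ± 0.068, adjusted p = 0.171). Both genes had a higher value at each step in Evx1as-/- mesoderm and had their unscaled Evx1as+/- maximum in layer 9. That maximum is in layer 11 after division by the median-ratio factors (1.26 in layer 9 and 0.64 in layer 11). The other cell cycle genes had slopes near 0: 33 of 35 were in the fit with a median slope of 0.008, and Cdkn1c was the other one at an unadjusted p under 0.05. Leaving out the Evx1as-/- section of layer 3 gave a count of 1. Apoc2, an apolipoprotein, was at 1.01, 1.14, 1.61, 63.8 and 14.1 FPKM in Evx1as-/- and at 0, 9.42 and 6.39 FPKM in Evx1as+/- mesoderm (slope 0.57 ± 0.16, adjusted p = 0.737). Its highest value was in the section of layer 9 that was rich in visceral endoderm genes, whose part in this slope was not tested.

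Among genes that moved upward at every step in both genotypes were also Tmem88, a membrane protein known to dampen WNT signalling, and Slc6a6, the taurine transporter, both named after their values were seen. Tmem88 was at 2.87, 5.29, 6.08, 9.66 and 27.2 FPKM in Evx1as-/- and at 5.51, 20.3 and 21.3 FPKM in Evx1as+/- mesoderm (slope 0.34 ± 0.073, adjusted p = 0.319). Slc6a6 was at 2.08, 4.33, 4.66, 5.23 and 12 FPKM in Evx1as-/- and at 2.2, 6.88 and 9.67 FPKM in Evx1as+/- mesoderm (slope 0.25 ± 0.068, adjusted p = 0.722). Layer 11 held the highest value of both genes in each genotype.

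Genes listed for the organizer and axial mesoderm had the opposite pattern, as far as they could be tested. The listed genes Noto, Chrd, Shh, Foxj1 and Nog were below the filter, at no more than 1.92 FPKM in any section. Of 16 listed genes 8 were in the fit, all 8 slopes were negative, and 6 had an unadjusted p under 0.05 (Cer1, Gsc, Otx2, Foxa2, Fzd8 and Lhx1), with a median slope of -0.33. Definitive endoderm gave 6 of 12 (Cer1, Hhex, Trh, Sox17, Otx2 and Foxa2) with a median of -0.29, and shares Cer1, Otx2 and Foxa2 with the first list. None of these genes passed the adjusted threshold, and the overlap means that the counts are not separate observations. Without the Evx1as-/- section of layer 9 the counts were 6 and 7, and without that of layer 3 they were 5 and 7.

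**Figure D2:**
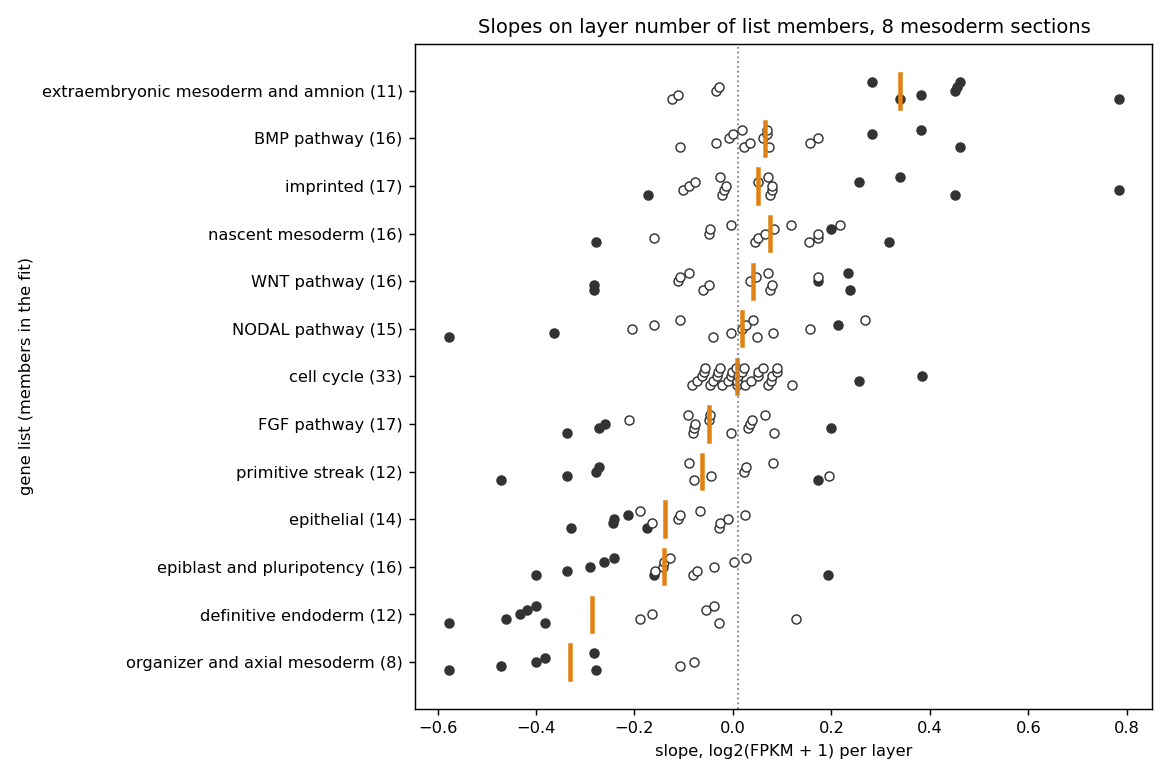
Slope on layer number (x axis, log2(FPKM + 1) per layer) of each member of 13 gene lists that was in the fit over the 8 mesoderm sections, with filled points at an unadjusted p under 0.05, orange bars at the list median and a dotted line at the median of all genes. The lists run from extraembryonic mesoderm and amnion, with a median of 0.34, to organizer and axial mesoderm, with a median of -0.33.

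Cer1, a secreted antagonist of NODAL, BMP and WNT ligands, had the steepest negative slope. It was at 57.3, 131, 38.9, 6.13 and 3.71 FPKM in layers 3 to 11 of Evx1as-/- mesoderm, against 4.94, 1.11 and 0.151 FPKM in layers 7 to 11 of Evx1as+/- mesoderm. The maximum was in layer 5, the levels above it went down at each step in both genotypes, and in each shared layer the Evx1as-/- section was the higher one. The slope was -0.58 ± 0.10 (adjusted p = 0.171). Gsc, the homeobox gene of the organizer, was at 23.2, 10, 4.54, 0.996 and 0.131 FPKM in Evx1as-/- mesoderm and listed at 0 in all 3 Evx1as+/- sections. It went down at each step in Evx1as-/- mesoderm, and its common slope of -0.47 ± 0.088 (adjusted p = 0.183) came from that genotype. In the 5 Evx1as-/- sections alone Gsc fell with layer (slope -0.56, adjusted p = 0.0305). The difference between the slopes of the genotypes had an adjusted p of 0.542.

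Foxa2, a forkhead factor of axial mesoderm and endoderm, was at 8.54, 8.37, 4.65, 3.47 and 0.148 FPKM in Evx1as-/- and at 4.46, 1.83 and 0.373 FPKM in Evx1as+/- mesoderm. It was lowest in layer 11 of both genotypes, and the Evx1as-/- section was the higher one in layers 7 and 9 and the lower one in layer 11 (slope -0.38 ± 0.074, adjusted p = 0.201). Lhx1, a homeobox gene of the head organizer, was at 42.3, 55.9, 50, 28.3 and 9.2 FPKM in Evx1as-/- and at 6.22, 4.06 and 1.46 FPKM in Evx1as+/- mesoderm. It stayed high through layer 7 in Evx1as-/- mesoderm and exceeded every Evx1as+/- value in all 5 sections (slope -0.28 ± 0.081, adjusted p = 0.813). Otx2, the homeobox gene of the anterior epiblast and head mesendoderm, was at 33.2, 31.2, 24.1, 12.8 and 4.58 FPKM in Evx1as-/- and at 11.1, 11.9 and 0.334 FPKM in Evx1as+/- mesoderm (slope -0.40 ± 0.11, adjusted p = 0.717). Its lowest value was in layer 11 of both genotypes. Brachyury (T), which marks streak and axial mesoderm alike, was at 10.4, 8.49, 9.14, 5.9 and 5.18 FPKM in Evx1as-/- and at 6.17, 22.2 and 7.93 FPKM in Evx1as+/- mesoderm, with a slope of -0.079 ± 0.084.

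Of the endoderm regulators, Sox17 was at 9.14, 9.89, 5.06, 1.35 and 0 FPKM in Evx1as-/- and at 2.13, 1.17 and 0.392 FPKM in Evx1as+/- mesoderm. Hhex, a homeobox gene of anterior endoderm that also acts in endothelium, was at 15, 12.7, 5.09, 0.285 and 1.02 FPKM in Evx1as-/- and at 2.78, 1.85 and 0.188 FPKM in Evx1as+/- mesoderm. Both genes were high in layers 3 and 5, at about 5 FPKM in layer 7 of Evx1as-/- mesoderm, and low from layer 9 on in both genotypes. The slopes were -0.42 ± 0.072 for Sox17 and -0.46 ± 0.082 for Hhex (adjusted p = 0.171 each). Trh, which encodes thyrotropin-releasing hormone, was at 44.8, 238, 73.6, 37.1 and 8.75 FPKM in Evx1as-/- and at 23.8, 4.1 and 1.57 FPKM in Evx1as+/- mesoderm (slope -0.43 ± 0.14, adjusted p = 0.844). Its peak in layer 5 of Evx1as-/- mesoderm coincided with those of Cer1 and of the epithelial genes Cldn6 (83.1 FPKM) and Cdh1 (6.64 FPKM). Other genes of the endoderm list did not reach an unadjusted p under 0.05: Gata6 had a slope of -0.054, Spink1 of -0.039 and Cxcr4 of 0.13.

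**Figure D3:**
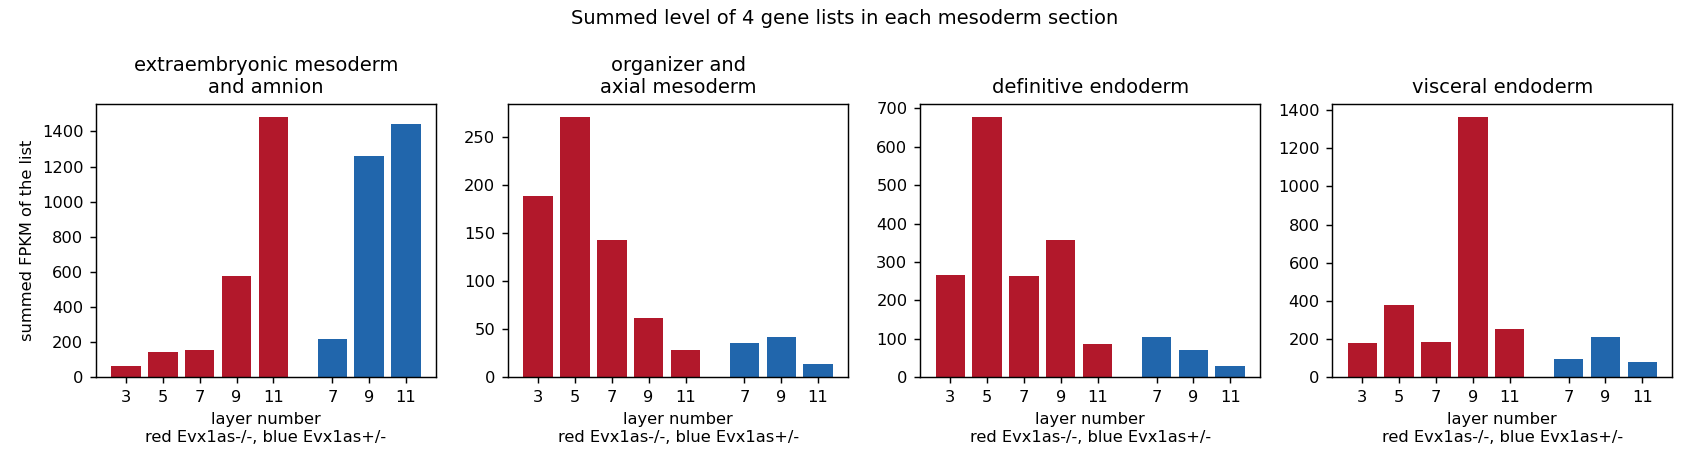
Summed FPKM of 4 gene lists in each of the 8 mesoderm sections (red bars Evx1as-/-, blue bars Evx1as+/-, layers on the x axis). The extraembryonic mesoderm list reaches 1484 FPKM in layer 11 of Evx1as-/- and 1440.2 FPKM in layer 11 of Evx1as+/- mesoderm, most of it Phlda2, while the visceral endoderm list stands at 1365 FPKM in the Evx1as-/- section of layer 9.

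Epithelial and epiblast genes also tended to negative slopes without passing the threshold. Of 26 epithelial genes 14 were in the fit and 5 (Spint2, Esrp1, Cldn7, F11r and Cdh1) had a negative slope at an unadjusted p under 0.05, with a median of -0.14. The count was 6 without the Evx1as-/- section of layer 9, 3 without that of layer 5 and 1 without that of layer 11, and it was 0 in layers 7, 9 and 11 alone. The protease inhibitor Spint2 was at 21.9, 23.7, 8.78, 9.66 and 2.84 FPKM in Evx1as-/- and at 4.91, 11 and 1.07 FPKM in Evx1as+/- mesoderm (slope -0.33 ± 0.094, adjusted p = 0.811). It was lowest in layer 11 of both genotypes, as was Cdh1, with 4.55, 6.64, 3.56, 3.59 and 1.14 FPKM in Evx1as-/- and 0.982, 0.336 and 0.219 FPKM in Evx1as+/- mesoderm. All 5 unscaled Evx1as-/- values of Cdh1 were above all 3 Evx1as+/- values. Neither this separation nor the Cdh1 order of Evx1as+/- layers 9 and 11 holds after division by the median-ratio factors (1.26 in layer 9 and 0.64 in layer 11). Cdh1, a marker of epithelium, had a negative slope like the organizer and endoderm genes, and its part in their slopes was not tested.

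Of 24 epiblast and pluripotency genes 16 were in the fit. Of these, 6 (Otx2, Fgf5, Pou3f1, Dnmt3b, Nanog and Utf1) had a negative and 1 (Dppa5a) a positive slope at an unadjusted p under 0.05, with a median of -0.14. Without the Evx1as-/- section of layer 9 these were 4 and 1, and without that of layer 3 they were 5 and 0. Over all 18 alternatives they were 3 to 9 and 0 to 1. The de novo DNA methyltransferase Dnmt3b was at 54.2, 40.7, 28.1, 19.5 and 16.9 FPKM in Evx1as-/- and at 32, 21.4 and 7.28 FPKM in Evx1as+/- mesoderm. It went down at each step in both genotypes (slope -0.26 ± 0.069, adjusted p = 0.717). Upp1, uridine phosphorylase, did the same with 12, 8.78, 4.11, 3.36 and 1.18 FPKM in Evx1as-/- and 1.2, 0.897 and 0 FPKM in Evx1as+/- mesoderm (slope -0.31 ± 0.059, adjusted p = 0.199). The kinase gene Pim2 was at 45.9, 12.6, 13.2, 5.18 and 3.47 FPKM in Evx1as-/- and at 23.3, 12.9 and 6.7 FPKM in Evx1as+/- mesoderm (slope -0.40 ± 0.068, adjusted p = 0.171). The histone gene Hist3h2ba had a slope of -0.32 ± 0.098 (adjusted p = 0.844), with 20.7 FPKM in layer 3 and 1.23 to 3.01 FPKM in the other 4 Evx1as-/- sections. Sequences of histone genes are similar, so reads may have been shared among copies.

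NODAL signalling genes did not share 1 direction. Beside Cer1, the antagonist Lefty1 was at 13.2, 1.08, 1.31, 0 and 0 FPKM in Evx1as-/- and listed at 0 in the 3 Evx1as+/- sections (slope -0.36 ± 0.11, adjusted p = 0.844), so that its slope rests largely on 1 section. Its neighbour Lefty2, the antagonist made in mesoderm, was at 21.3, 79.4, 113, 53.7 and 18.1 FPKM in Evx1as-/- and at 35.8, 34.1 and 4.19 FPKM in Evx1as+/- mesoderm. It was highest in the middle layers and had a slope of -0.16 ± 0.15. The coreceptor Tdgf1 was at 84.9, 109, 130.1, 90.4 and 91.9 FPKM in Evx1as-/- and at 11.8, 28.1 and 19.6 FPKM in Evx1as+/- mesoderm. The Evx1as-/- section was the higher one in every shared layer, but the slope was only 0.027 ± 0.070. Furin, the convertase that processes NODAL, was the 1 member with a positive slope at an unadjusted p under 0.05 (0.21 ± 0.079). Of 20 listed genes 15 were in the fit, with a median slope of 0.018, 2 (Cer1 and Lefty1) with a negative and 1 (Furin) with a positive slope at that threshold. Leaving out the Evx1as-/- section of layer 3 gave 3 and 1, and a median of -0.026. Over all genes tested, the main fit had 2.05% negative and 2.82% positive slopes at that threshold.

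WNT and FGF genes were likewise split. Of 32 WNT pathway genes 16 were in the fit. The ligands Wnt5a (slope 0.23), Wnt5b (0.24) and Wnt3 (0.17) had a positive and the antagonist Sfrp1 (-0.28) and the receptor Fzd8 (-0.28) a negative slope at an unadjusted p under 0.05, with a median of 0.04. Without the Evx1as-/- section of layer 3 there were 1 positive and 2 negative slopes and the median was -0.025, and without that of layer 9 there were 3 and 1. Wnt5a was at 0.776, 1.42, 3.2, 3.92 and 6.18 FPKM in Evx1as-/- and at 1.98, 7.49 and 3.43 FPKM in Evx1as+/- mesoderm, with a higher value at each step in Evx1as-/- and a peak in layer 9 in Evx1as+/- mesoderm. Of 23 FGF pathway genes 17 were in the fit, and the ligands Fgf5 (-0.34) and Fgf8 (-0.27) and the feedback inhibitor Spry4 (-0.26) had a negative slope while the ligand Fgf10 (0.20) had a positive one at that threshold. There were 4 negative slopes and none positive without the Evx1as-/- section of layer 3. For the WNT and FGF lists alike, the background over all genes in the main fit was 2.82% positive and 2.05% negative. Fgf8 was at 22.2, 13.6, 13, 4.41 and 2.77 FPKM in Evx1as-/- mesoderm, against 0.896, 1.67 and 1.09 FPKM in Evx1as+/- mesoderm. The Evx1as-/- values went down at each step and all lay above the Evx1as+/- values.

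HOX and CDX genes were mostly too low to test: 2 of 39 passed the filter. Hoxb1 was at 0, 0.202, 0.419, 0.614 and 3.9 FPKM in Evx1as-/- and at 1.41, 5.89 and 7.51 FPKM in Evx1as+/- mesoderm. Hoxb2, its neighbour, was at 0, 0, 0.093, 0.982 and 1.66 FPKM in Evx1as-/- and at 1.07, 4.2 and 3.09 FPKM in Evx1as+/- mesoderm. In each shared layer the Evx1as-/- section was the lower one for both genes. The slopes were 0.28 ± 0.078 for Hoxb1 (adjusted p = 0.737) and 0.20 ± 0.079 for Hoxb2 (adjusted p = 0.968). Both had an unadjusted p under 0.05, and without the Evx1as-/- section of layer 9 this held for 1 of them. Crabp1, which binds retinoic acid in the cytoplasm, was at 0.914, 1.33, 3.72, 13.8 and 12.9 FPKM in Evx1as-/- and at 9.64, 18.6 and 10.1 FPKM in Evx1as+/- mesoderm (slope 0.35 ± 0.088, adjusted p = 0.68).

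The general mesoderm genes had weaker trends. Of 19 nascent mesoderm genes 16 were in the fit, 2 (Kdr and Fgf10) with a positive and 1 (Lhx1) with a negative slope at an unadjusted p under 0.05, and the median was 0.075. Without the Evx1as-/- section of layer 3 there were 1 positive and 3 negative slopes, and the median was -0.021. The background over all genes in the main fit was 2.82% positive and 2.05% negative. Mesp1 was at 11.1, 22, 29.2, 39 and 64.4 FPKM in Evx1as-/- mesoderm and at 19.2, 72.8 and 14.1 FPKM in Evx1as+/- mesoderm. It was higher at each step in Evx1as-/- sections and peaked in layer 9 in Evx1as+/- sections (slope 0.22 ± 0.11, adjusted p = 0.968). Eomes and Tbx6, T-box genes of early and paraxial mesoderm, had slopes of -0.045 ± 0.082 and -0.0043 ± 0.10. The presomitic gene Msgn1 was below the filter, at 0 in 6 of the 8 sections. Evx1, the neighbour of Evx1as, was also below it, at 0.0668, 0.567, 0.829, 1.29 and 1.86 FPKM in Evx1as-/- and 0.565, 0.744 and 0.78 FPKM in Evx1as+/- mesoderm. Its unscaled level went up at each step in both genotypes, and the exact permutation of layers within genotype gave a two-sided p of 0.00278, unadjusted. The smallest possible p is this value, which was reached by 9 of the 81 genes named by rule or after their values were seen. Many of these were named for steep slopes, so that count is no comparison. Layers 7 and 9 of Evx1as+/- mesoderm had median-ratio factors of 0.872 and 1.26. After division by them the step between these layers is not upward, so the order behind this p depends on scaling. The kit was stranded, but the sources used here do not say whether reads were assigned by strand, so reads of Evx1 and of its antisense partner may not be told apart.

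Whether the slopes differ between the genotypes was asked by the product of genotype and layer. No gene passed an adjusted p under 0.05 (0% each way, limma, smallest adjusted p 0.23). At an unadjusted p under 0.05, 549 genes (6.31%) had the larger slope in Evx1as-/- and 168 (1.93%) in Evx1as+/- mesoderm. After scaling each section by its median ratio the split was 584 and 584. The median difference of all genes was 0.10 log2 units per layer before scaling. The Evx1as-/- slope spans layers 3 to 11 and the Evx1as+/- slope layers 7 to 11, so this fit mixes genotype with layer range. In layers 7, 9 and 11 alone, without scaling, 161 genes had the larger slope in Evx1as-/- and 54 in Evx1as+/- mesoderm at an unadjusted p under 0.05. No gene passed the adjusted threshold there. The named genes with the smallest p included Hba-a1, an alpha globin with a near-identical copy. It was at 22.2, 22.4, 19.5, 10.2 and 25.9 FPKM in Evx1as-/- and at 198, 11.5 and 2.82 FPKM in Evx1as+/- mesoderm (difference 1.39 ± 0.23, adjusted p = 0.347). The value of 198 FPKM in layer 7 stood above the other 7 sections. The histone gene Hist2h3b (1.01 ± 0.18, adjusted p = 0.424) and Rpp14, a subunit of ribonuclease P (0.89 ± 0.17, adjusted p = 0.542), followed. Yrdc (-0.85 ± 0.24), Gsc (-0.56 ± 0.16) and Tex30 (-0.57 ± 0.17) had the smallest p in the other direction, with an adjusted p of 0.542 each. With 3 sections in the Evx1as+/- arm, leaving out 1 of them changed these counts, as given in the closing section.

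Whether the trend differs between mesoderm and the neighbouring streak was asked over the 8 mesoderm and 9 streak sections of layers 3 to 11. No gene of 9214 passed (0% each way, limma, smallest adjusted p 0.427). At an unadjusted p under 0.05, 386 genes (4.19%) had the larger slope in mesoderm and 88 (0.955%) in streak, together 474 genes. This is close to the share of about 0.05 expected at that threshold with no difference. After scaling by the median ratio the counts for mesoderm and streak were 458 and 254. With layer within genotype as a block, which compares the mesoderm and streak sections of the same layer and genotype, they were 133 and 197, and again no gene passed. Phlda2 had a slope of 0.62 in streak, with 13.2, 30.7, 206 and 352 FPKM in layers 5 to 11 of Evx1as-/- and 35.1, 87.3, 93.5, 406 and 581 FPKM in layers 3 to 11 of Evx1as+/- streak. The difference of slopes, mesoderm minus streak, was 0.17 ± 0.11 (unadjusted p = 0.154). Phlda2 thus climbed with layer number in both regions.

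Crabp1 had the positive difference with the smallest p (0.52 ± 0.11, adjusted p = 0.427): in streak it was at 0 to 4.19 FPKM with a slope of -0.17. Cer1 (-0.57 ± 0.12) and Sox17 (-0.47 ± 0.10) had the negative differences with the smallest p among the named genes (adjusted p = 0.427 each). Without the Evx1as-/- mesoderm section of layer 3 the difference of Cer1 was -0.77 and passed (adjusted p = 0.024). Cer1 was at 0 to 0.767 FPKM in all 9 streak sections, and Sox17 at 0 to 1.55 FPKM. Their slopes of -0.0040 and 0.053 in streak are slopes of values close to 0. Gsc (-0.37 ± 0.12, adjusted p = 0.925) and the WNT receptor Fzd10 (-0.30 ± 0.092, adjusted p = 0.851) followed, Fzd10 with its higher values in streak, up to 11.2 FPKM against at most 0.304 FPKM in mesoderm. Maged1 had a positive difference of 0.33 ± 0.091 (adjusted p = 0.851). Taf9 (0.69 ± 0.17, adjusted p = 0.689) was at 9.95 and 5.89 FPKM in layers 9 and 11 of Evx1as-/- mesoderm and at no more than 0.229 FPKM in the other 6 mesoderm sections, an on and off pattern of listed values.

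**Figure D4:**
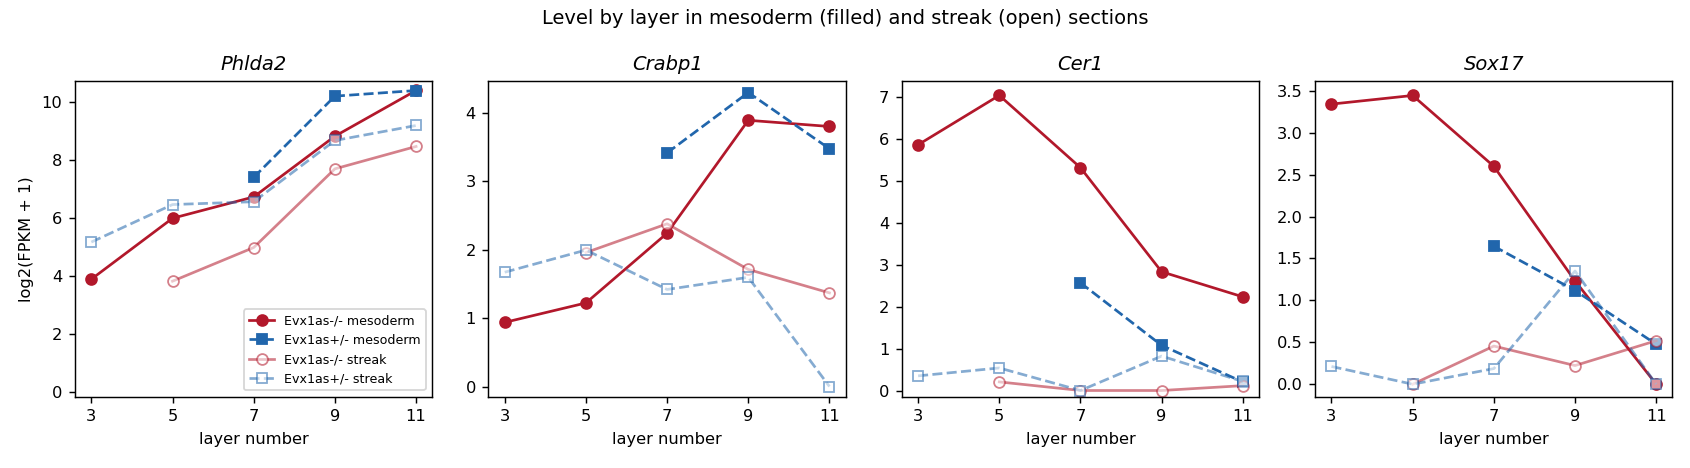
Level of 4 genes as log2(FPKM + 1) against layer number in mesoderm (filled symbols) and streak sections (open symbols), red for Evx1as-/- and blue for Evx1as+/-, with an own y axis in each panel. Phlda2 climbs in both regions, while Cer1 reaches 131 FPKM in mesoderm and stays at or under 0.767 FPKM in streak.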

How the data were processed

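Per the labels' protocols, cryosections were captured by laser and profiled with Geo-seq, which is made for small pieces of tissue. For every section the authors deposited a table of FPKM per gene, with lower and upper bounds, laid out like Cufflinks output. The submitters' processing notes name CASAVA, TopHat2 2.0.11 and the genome mm10, and the tool behind the values is not given in the sources used here. Amplification of little RNA and the missing counts mean that low values are uncertain by an unknown amount. Of the 46785 identifiers, 46298 matched GENCODE M21. Rows that repeat an identifier were summed. Anything smaller than 1e-06 FPKM was treated as 0.

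The fits used log2(FPKM + 1) and kept a gene if it averaged 1 FPKM or more in the sections concerned. They were made with limma 3.58.1 in R 4.3.3 (mean-dependent prior, two-sided, Benjamini-Hochberg adjustment, threshold 0.05). A slope on this scale understates the change of low genes. Single genes were also tested by an exact permutation of layers within genotype. The fits were tested on simulated data. Alternatives changed the scaling, the pseudocount, the filter, the prior, the terms and the sections used.

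The sections, the gene lists and the tests were chosen with earlier results of these data known. Named genes are 16 anchors, the 10 steepest slopes each way at an unadjusted p under 0.01 with at least 10 FPKM in 1 section where fewer passed the threshold, the 2 members of smallest p of each list (up to 4 where members passed), and the 3 of smallest p each way for differences. A further 14 were chosen after their values were seen, as were members of lists that are named to account for a count. Pseudogenes and predicted genes were left unnamed. Culture samples were not used here.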

Additional observations from a re-analysis of the deposited data

Results flagged for a closer look

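Within the 5 Evx1as-/- mesoderm sections, 86 values were checked for a single section that stands apart from the other 4, and 18 did. Chance flags about 1 in 20 such groups, but many of these genes were named for steep slopes, so that rate is no comparison for them. The section of layer 11 was the highest for Hand1 (30 FPKM), Etv2 (26.7 FPKM), Tmem88 (27.2 FPKM), Msx2 (12.7 FPKM), Bmp4 (7.98 FPKM), Hoxb1 (3.9 FPKM), Efnb2 (3.33 FPKM), Phlda3 (3.06 FPKM) and the summed blood and endothelial list (49.1 FPKM). The section of layer 3 was the highest for Pim2 (45.9 FPKM), Hist3h2ba (20.7 FPKM), Lefty1 (13.2 FPKM) and the share of all FPKM taken by the noncoding RNA Yam1 (22.2%). The section of layer 5 stood apart in Trh (238 FPKM) and in the laminin gene Lamb1 (3.94 FPKM), that of layer 7 in its total of 252868 FPKM, and that of layer 9 in Apoc2 (63.8 FPKM) and the summed visceral endoderm list (1365 FPKM). Phlda2 was not among these values.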

How the results depend on the processing

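Phlda2 remained positive under all 18 alternatives (slope 0.76 to 0.83, adjusted p 0.000133 to 0.567), and it passed under 13 of them. The count of genes higher with layer was 0 with no filter on low values, with an own slope per genotype, and in layers 7, 9 and 11 alone, and 0 to 1 when 1 section at a time was left out. The count of genes lower with layer was 1 (Gsc) in the Evx1as-/- sections alone. For the difference between genotypes the main counts of 0 became 0 to 36 genes with the larger slope in Evx1as-/- and 0 to 34 in Evx1as+/- mesoderm when sections were left out. These were 36 and 34 without the Evx1as+/- section of layer 7, 8 and 5 without that of layer 9, and 11 and 12 without that of layer 11, each leaving 2 sections in that arm. For mesoderm against streak the count with the larger slope in streak was 0 to 1, the 1 being Cer1 without the Evx1as-/- section of layer 3. The cause was not tested.

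Of 1333 slopes of named genes under alternatives, 14 changed sign, all in genes with a slope near 0 or far from the threshold. Tdgf1 had -0.14 without a genotype term, Fgfr2 0.11 with own slopes, and in Evx1as-/- sections alone Eomes had 0.004, Tbx6 0.095 and Tdgf1 -0.002. In layers 7, 9 and 11 alone Pdgfra had -0.10, Cdh11 -0.076 and Fgfr2 0.18. Leaving out 1 section gave -0.018 to 0.21 for Pdgfra, -0.16 to 0.002 for Fgfr2, -0.093 to 0.097 for Tbx6 (0.035 without the Evx1as+/- section of layer 7), -0.014 to 0.068 for Tdgf1 and -0.08 to 0.019 for Eomes. For the trend within mesoderm and its difference between genotypes, no paired analysis was possible because the sections carry no replicate number. Mesoderm and streak sections could be matched by layer and genotype, and the fit with that block called 0 genes each way. Depth is unknown, so no limit of detection can be given.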

Other observations

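The 3 sections whose title and cell type label name different regions were left out of the fits. Their Phlda2 levels were 8.52 FPKM in the one titled Evx1as-/- S3, 56 FPKM in that titled Evx1as+/- M3 and 90.4 FPKM in that titled Evx1as+/- M7. Cer1 was at 1.85, 6.04 and 20.8 FPKM in the same order of sections, and Mixl1, a homeobox gene of the streak, at 226, 1.69 and 1.79 FPKM.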
